A study of Danio rerio with 4 samples.

Results

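The 9 genes described here form a set for macrophage complement (c1qa, c1qb, c1qc), antigen presentation (cd74a, cd74b), and lineage and scavenging (mpeg1.1, csf1ra, marco, mfap4). They were listed with earlier results of these data known, and were matched by gene symbol. All 9 of 9 were found among the 14962 genes of the authors' deposited table, each on 1 row. The study compared adult zebrafish of the Ekkwill strain that had received either vehicle or alfacalcidol by injection, the latter being a vitamin D precursor drug that the liver converts to the active hormone. Per the labels, injections were given daily over 3 days and the tissue collected was the heart, 24 hours after the last injection. The labels give no dose, age or sex, and they do not say whether hearts were pooled or whether libraries came from separate animals.

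Macrophages reside in the healthy heart, where they clear dead cells and debris, and in zebrafish they also take part in heart regeneration. C1q, assembled from A, B and C chains, is the recognition molecule of the classical complement pathway, and tissue macrophages are a main source of it in mammals. Macrophages, dendritic cells and B cells also present peptides on class II molecules of the major histocompatibility complex, which are escorted through the cell by the invariant chain CD74. Active vitamin D is known in mammals to act on monocytes and macrophages, which carry its receptor.

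Results of 2 kinds were at hand, and they are given apart. The first is a table of 1 comparison that the authors made with edgeR, with a log2 fold change, a mean level as CPM (reads of a gene scaled to a common library size) and p-values per gene, and with no values per library. Neither the direction nor the libraries of this comparison are stated in it. Lower and higher are read here as lower and higher with alfacalcidol, because cyp24a1, a known target of the vitamin D receptor, is listed there with a positive value (a log2 fold change of 1.53, the authors' deposited table). The second kind is gene counts of 4 libraries labelled heart, 2 vehicle and 2 alfacalcidol, with 31427486 to 39572163 counts each. The cardiac myosin light chain gene myl7 stood at 20203 CPM in the authors' deposited table but at 16.3 ± 0.470 CPM (SD, n = 2) under the vehicle label of the counts. The skeletal muscle actin gene actc1b was the opposite, 8.75 CPM in the authors' deposited table against 15607 ± 899.9 CPM (SD, n = 2) in those libraries. Heart markers thus stood high in the table and low in the count libraries, so the latter go against their tissue label and are named by label only. In 2 pairs, counts were closer across labels than within them: a chi-square of the counts, averaged over 19145 genes with at least 200 reads in all, came to 2.21 for vehicle 2 with alfacalcidol 1 and 7.11 for vehicle 1 with alfacalcidol 2. The same measure was 18.1 within the vehicle label and 20.9 within the alfacalcidol label.

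In the authors' deposited table, all 9 genes had a negative log2 fold change, as did 49.0% of all genes, and 5 of 9 were called lower at an adjusted p of 0.05. Over all 14962 genes of the authors' deposited table, 20.1% were called, made up of 9.22% lower and 10.9% higher. At an adjusted p of 0.01 the authors' deposited table had 2 of the 9 called, c1qc and cd74a, beside 13.7% of all genes. The median log2 fold change was -0.53 over the 9 genes and 0.01 over all genes of the authors' deposited table. Of the 9 genes, 8 lay in the lowest 25% of log2 fold changes in the authors' deposited table. Because the 9 were listed with earlier results of these data known, these shares are descriptive and not an independent test. The sizes were modest, between 1.17-fold and 1.66-fold. In bulk RNA, fewer cells of a type and less RNA per cell cannot be told apart.

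All C1q chains were on the lower side. The C chain gene c1qc had the largest change of the 9, a fall of 1.66-fold in the authors' deposited table (log2 fold change -0.73, edgeR adjusted p 0.00242, mean level 11.5 CPM). The B chain gene c1qb fell by 1.48-fold in the authors' deposited table (log2 fold change -0.56, edgeR adjusted p 0.0268, 11.6 CPM). The authors' deposited table gives the A chain gene c1qa a log2 fold change of -0.40 (edgeR adjusted p 0.170, 7.09 CPM), so it was not called. Whether c1qa differs from its partner chains was not tested, since the table holds no values per library.

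Both copies of the invariant chain gene were called. The copy cd74a fell by 1.59-fold in the authors' deposited table (log2 fold change -0.67, edgeR adjusted p 0.00394, 87.2 CPM). The copy cd74b fell by 1.45-fold in the authors' deposited table (log2 fold change -0.53, edgeR adjusted p 0.0242, 48.2 CPM). The copies lie on chromosome 14 (2787356 to 2801244) and chromosome 21 (33424025 to 33429516) of GRCz10, and both were lower in the authors' deposited table.

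The lineage and scavenging genes were less uniform. Of these 4 genes, the receptor gene csf1ra was called, with a 1.53-fold decrease in the authors' deposited table (log2 fold change -0.62, edgeR adjusted p 0.0198, 13.8 CPM). It encodes a receptor for colony stimulating factor 1 that macrophages need for survival and proliferation, and in zebrafish it is also used by yellow pigment cells. The scavenger receptor gene marco, whose product binds bacteria and modified lipoproteins, stood at a log2 fold change of -0.50 (edgeR adjusted p 0.0746, the authors' deposited table). For mfap4, a marker of zebrafish macrophages, the authors' deposited table gives -0.46 with an edgeR adjusted p of 0.291 at 3.26 CPM. The perforin-like gene mpeg1.1, whose promoter is widely used to label zebrafish macrophages, had -0.23 with an edgeR adjusted p of 0.453 in the authors' deposited table. It was the gene with the smallest change of the 9 and the one outside the lowest 25%, at percentile 27.1 of the authors' deposited table.

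**Figure D1:**
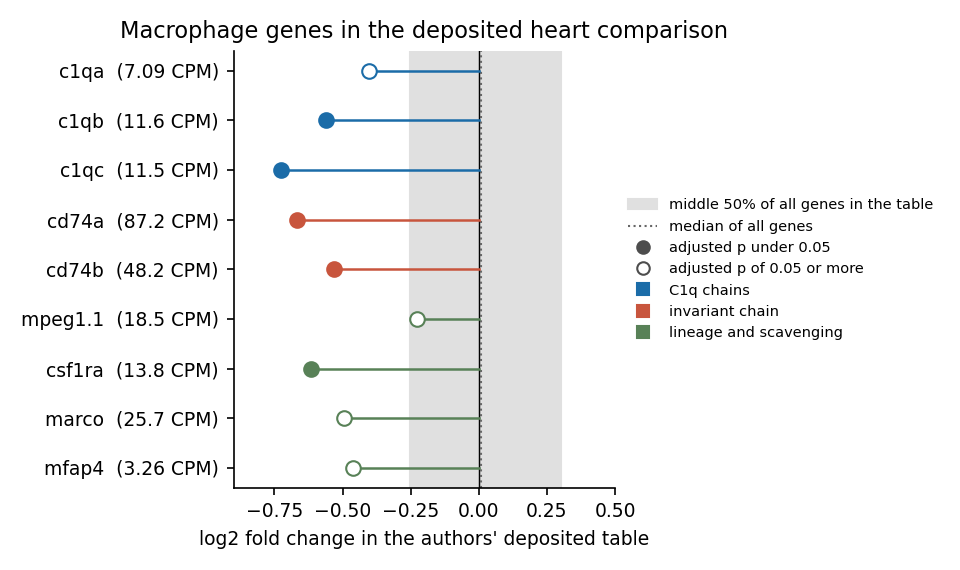
Log2 fold change of the 9 genes in the authors' deposited table, with the mean level in CPM beside each name; filled points have an adjusted p under 0.05, and the grey band spans the middle 50% of all 14962 genes. All 9 points lie left of 0, 5 of them filled, from -0.73 for c1qc to -0.23 for mpeg1.1, whose point alone lies inside the band.

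Some of the genes are near neighbours. The C1q genes lie within 12.7 kb on chromosome 21 of GRCz10 (22675702 to 22688375) in the authors' deposited table. Over all genes of the authors' deposited table, 10.9% were called higher and 9.22% lower. Of the 8 others there within 100 kb of the C1q genes, 2 were called higher, 0 lower and 6 were not called. The called ones were fbxo40.1 at a log2 fold change of 0.94 (edgeR adjusted p 1.89e-05) and fbxo40.2 at 1.29 (edgeR adjusted p 0.00428) in the authors' deposited table, named after their values were seen. The gene fbxo40.1 starts 1779 bases beyond the end of c1qa.

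The gene mpeg1.1 lies on chromosome 8 (29700878 to 29704389), apart from the rest. Of its 6 neighbours within 100 kb, the authors' deposited table had 4 called lower and 0 called higher, beside 9.22% and 10.9% of all genes. No call was made for mpeg1.1 itself. Those 4, among them tspan36 at -0.92, mapk4 at -0.95 and slc20a2 at -0.70 in the authors' deposited table, were again named after their values were seen. Around marco 2 of 9 neighbours were called higher in the authors' deposited table, and none of the 3 near cd74a, 4 near cd74b and 3 near mfap4 was called at an edgeR adjusted p of 0.05. The gene csf1ra (3170816 to 3202049) lies within 415 kb of cd74a on chromosome 14, marco on chromosome 9 (796083 to 813878) and mfap4 on chromosome 1 (58296087 to 58314908), and 0 other genes of the table lie within 100 kb of csf1ra. The locus of mfap4 shares 87.0% of its length with another gene of the same family, listed as MFAP4 (1 of many), at -0.19 in the authors' deposited table (edgeR adjusted p 0.730). How reads of such overlapping copies were assigned is not stated, so the mfap4 value is uncertain.

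**Figure D2:**
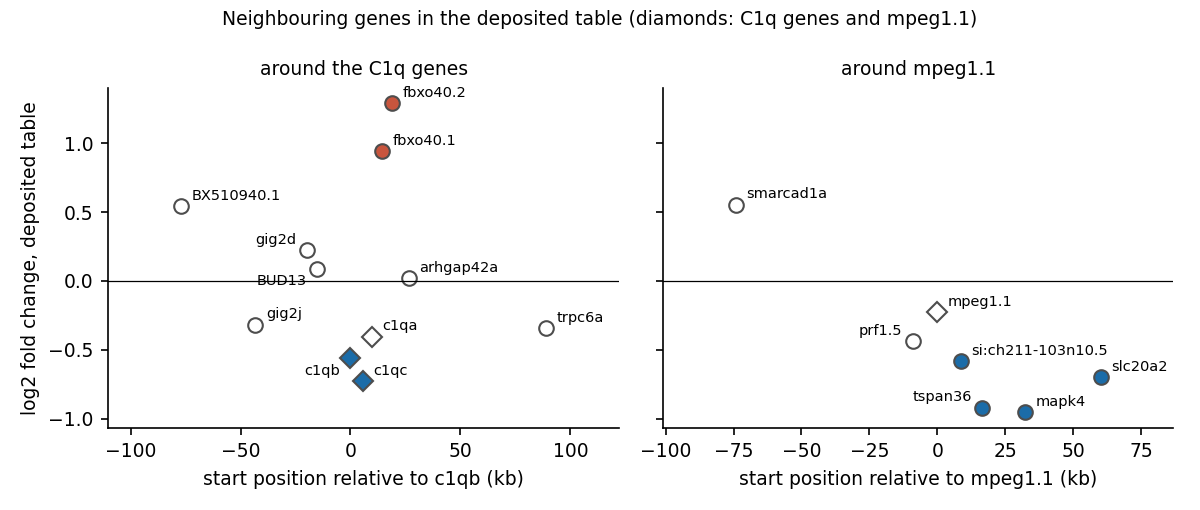
Log2 fold change in the authors' deposited table of genes within 100 kb of c1qb (left) and mpeg1.1 (right), by start position relative to that gene in kb; blue is called lower, red called higher and white not called at an adjusted p of 0.05. The C1q diamonds lie below 0 beside fbxo40.1 and fbxo40.2 at 0.94 and 1.29, whereas the mpeg1.1 diamond at -0.23 has 4 blue neighbours.

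Beyond C1q, the complement genes went both ways. For this list and those below, the shares over all genes of the authors' deposited table were 9.22% lower and 10.9% higher. Of 39 complement genes listed, 11 were matched in the authors' deposited table, with 3 lower, 1 higher, 7 not called and a median log2 fold change of 0.00. The largest fall was in c3a.1, a copy of the gene for the central component C3, at -2.04 in the authors' deposited table (edgeR adjusted p 9.01e-21). The protease gene masp1, which starts the lectin pathway, was at -1.12 (edgeR adjusted p 0.00209) at only 1.19 CPM in the authors' deposited table. The properdin gene cfp, whose product stabilises the alternative pathway convertase, was at -0.71 (edgeR adjusted p 0.00280) in the authors' deposited table. By contrast cfd, encoding the factor D protease of the alternative pathway, rose by 2.68-fold in the authors' deposited table (log2 fold change 1.42, edgeR adjusted p 1.60e-12). The gene c1s, for a protease that C1q carries, had -0.33 (edgeR adjusted p 0.253) and c4, its substrate, -0.47 (edgeR adjusted p 0.128) in the authors' deposited table; both were picked for their role in the C1q pathway after values were seen. C3 is encoded by several similar copies, whose reads may be shared. The copies c3b.1 and c3b.2 were not called, at 0.33 (edgeR adjusted p 0.490) and 0.37 (0.488) in the authors' deposited table. Their levels there were low, 2.59 and 1.23 CPM, and both were picked after values were seen.

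In the class II presentation list, the authors' deposited table matched 12 of 21 genes, with 3 lower, 0 higher, 9 not called and a median of -0.41. The 3 were all lysosomal cathepsins, proteases that trim the invariant chain and antigens: ctsla at -0.84 (edgeR adjusted p 5.72e-05), ctss2.1 at -0.85 (0.00583) and ctss2.2 at -0.58 (0.0305) in the authors' deposited table. The class II beta chain gene mhc2dab stood at -0.40 in the authors' deposited table (edgeR adjusted p 0.114). The class II transactivator gene ciita had -0.45 (edgeR adjusted p 0.498) at 1.23 CPM in the authors' deposited table; this pair was picked by role after values were seen.

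Class I presentation, which nearly all cells carry out, had 18 of 27 genes matched in the authors' deposited table, of which 8 were lower, 0 higher and 10 not called, with a median of -0.34. The called genes encode the molecules of the cell surface. They include the heavy chain genes mhc1zca at -0.84 (edgeR adjusted p 5.65e-05), mhc1uka at -0.86 (0.000710) and mhc1zba at -0.66 (0.00281), and the light chain gene b2ml at -0.65 (0.00234) in the authors' deposited table. The peptide transporter gene tap1 was at 0.22 (edgeR adjusted p 0.554) and the immunoproteasome genes psmb8a and psmb9a were at -0.07 (0.886) and 0.25 (0.576) in the authors' deposited table; these were chosen after their values were seen. Class I heavy chain genes are similar copies that vary between strains, so counts of single copies are uncertain.

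Among 44 other macrophage and microglia genes, 30 were matched in the authors' deposited table, of which 7 were lower, 0 higher and 23 not called, with a median of -0.30. The mannose receptor gene mrc1b was at -1.23 (edgeR adjusted p 1.21e-06), tspan36 at -0.92 (4.23e-05), the cholesterol exporter gene abca1a at -0.77 (0.00307) and the myeloid transcription factor gene spi1a at -0.71 (0.00642) in the authors' deposited table. Of these, tspan36 is also a pigment cell gene in zebrafish, and abca1a is used by many cell types. The paralog of spi1a, spi1b, was not called, at -0.31 (edgeR adjusted p 0.431) in the authors' deposited table. Nor was the transcription factor gene irf8, at -0.29 (edgeR adjusted p 0.476) there. Both were picked after their values were seen. Of the paralogs of the genes described above, mpeg1.2 had 0.43 (edgeR adjusted p 0.222) and csf1rb 0.18 (edgeR adjusted p 0.624) in the authors' deposited table, against -0.23 for mpeg1.1 and -0.62 for csf1ra. These 2 differences between paralogs were not tested.

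Of 17 genes shared by all white blood cells, 14 were matched in the authors' deposited table, with 3 lower, 0 higher and 11 not called and a median of -0.32. The 3 were the tetraspanin gene CD53 at -0.64 (edgeR adjusted p 0.0132), lsp1 at -0.93 (0.0232) and laptm5 at -0.57 (0.0496) in the authors' deposited table. The general leukocyte gene ptprc, which encodes CD45, had -0.30 in the authors' deposited table (edgeR adjusted p 0.294). Upstream of the receptor csf1ra, its ligand gene csf1a was among the lowest genes of the whole table, at -2.30 (edgeR adjusted p 2.11e-15, 2.75 CPM, rank 38 of 14962 from the lowest) in the authors' deposited table. Another receptor ligand gene, il34, had 0.00 in the authors' deposited table (edgeR adjusted p 1). The ligand gene csf1b, also listed, was not matched there. Of the 8 of 16 ligand and interferon gamma pathway genes matched in the authors' deposited table, 1 was lower and 1 higher, the latter being the transcription factor gene stat1b at 1.29 (edgeR adjusted p 0.00811).

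**Figure D3:**
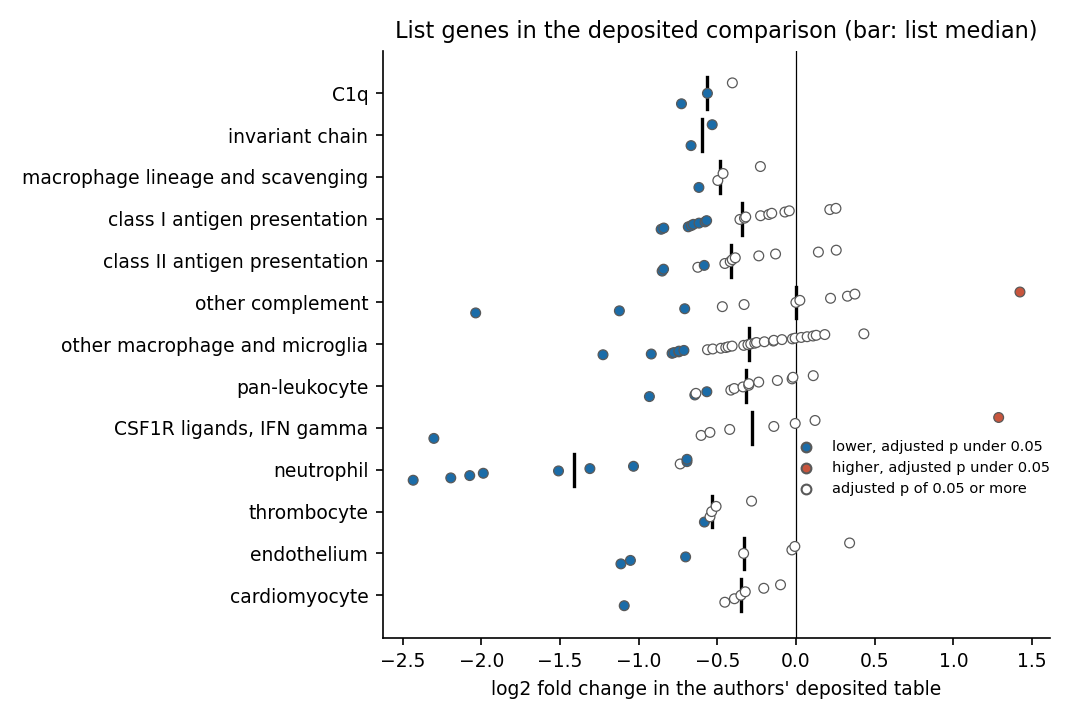
Log2 fold change of each matched gene in the authors' deposited table, by list; blue is called lower, red called higher and white not called at an adjusted p of 0.05, and each black bar is a list median. Class I and class II genes spread from -0.86 to 0.26 with medians of -0.34 and -0.41, while other complement genes run from -2.04 to 1.42 around a median of 0.00.

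Markers of other cell types moved in the same comparison, and their part in the values of the macrophage genes was not tested. The neutrophil list has 15 genes, whose specificity to that cell type was not tested. Of the 10 matched, the authors' deposited table had 9 lower and 0 higher (median -1.41, range -2.43 to -0.69). Each of these 10 lay below the median of the 9 macrophage genes. On the neutrophil list, the lowest adjusted p values in the authors' deposited table were for mmp13a at -1.99, mmp9 at -2.19 and npsn at -2.07 (edgeR adjusted p 1.03e-10, 9.45e-09 and 1.39e-08). The authors' deposited table had 1 of 5 thrombocyte genes lower (itga2b at -0.58), 1 of 7 cardiomyocyte genes lower (nppa at -1.09) and 3 of 7 endothelial genes lower (tek at -1.11, flt1 at -1.05, kdrl at -0.70), with 0 higher in each. Without a threshold, log2 fold changes there were negative for 5 of 5 thrombocyte, 7 of 7 cardiomyocyte and 6 of 7 endothelial genes. Their medians were -0.54, -0.35 and -0.33, beside -0.53 for the 9 macrophage genes, so a modest decrease was not particular to the latter. Skeletal muscle had 2 of 5 lower (ckma at -0.83, acta1b at -0.81) and epidermis 2 of 3 (krt91 at -1.45, krt4 at -1.25) in the authors' deposited table. Liver had 1 of 2 lower there (tfa at -1.54), again with 0 higher on each list, and cartilage had 0 of 2 called. The uncalled genes of these lists all had positive values. They were actc1b at 0.06, mylpfa at 0.06, myhz2 at 0.16, krt5 at 0.87, apoa1b at 0.41 and both cartilage genes in the authors' deposited table. The skeletal muscle median was 0.06, so ckma and acta1b do not stand for that list. For B cells 2 of 7 and for T cells 1 of 10 listed genes were matched in the authors' deposited table, none called at an edgeR adjusted p of 0.05. B cells also use cd74a and cd74b, and the defining B cell genes cd79a, cd79b, pax5, ighm and ighz were not matched there. Summed levels by group cannot be given for the table, because it holds 1 mean per gene.

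The count libraries gave no call for these genes. Of the 9, 8 passed the low-count filter and c1qb did not, and 0 of the 8 were called by edgeR's quasi-likelihood test after Benjamini-Hochberg adjustment (0.00% of the 22428 genes tested were called, and DESeq2 called 0 as well). At an unadjusted p under 0.05 edgeR had 1 of the 8, cd74a, and 128 of the 22428 genes tested. DESeq2 had 0 of the 8 and 19 of all genes. Both totals lie far below the share of 0.05 that would pass if no gene differed. The spread within labels, which exceeded that of 2 pairs across labels as given above, serves as the error here. Whether that spread accounts for the lack of calls was not tested. The lack of calls does not show that these genes were unchanged, and intervals for single genes are given below. The unadjusted p of cd74a was above 0.05 with DESeq2 (0.184), with no low-count filter (0.0591), with the replicate block (0.0827) and with any 1 library left out (0.0944 to 0.255). The nearest thing to a difference was in the invariant chain pair, where the copies went opposite ways on very few reads. The gene cd74a had 9 and 7 reads in the libraries labelled vehicle and 17 and 21 in those labelled alfacalcidol, or 0.286, 0.201, 0.502 and 0.529 CPM. The alfacalcidol libraries were both above the vehicle libraries, yet 95% Poisson intervals, which cover counting error only, run from 2.81 to 14.4 for 7 reads and from 13.0 to 32.1 for 21 reads. The edgeR log2 fold change of cd74a was 1.08 (95% interval 0.02 to 2.14, unadjusted p 0.0471, adjusted p 0.99997).

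The gene cd74b had 29 and 22 reads in the libraries labelled vehicle and 8 and 22 in those labelled alfacalcidol, or 0.923, 0.633, 0.236 and 0.554 CPM. Both alfacalcidol values lie below both vehicle values, the second by a narrow margin. Its edgeR log2 fold change was -0.94 (95% interval -2.09 to 0.22, adjusted p 0.99997). In all, 4 of the 8 tested genes had groups that did not overlap, where 21.0% of all tested genes did so. They were cd74a, csf1ra and mfap4 with alfacalcidol higher and cd74b with alfacalcidol lower. In the libraries labelled alfacalcidol, then, cd74a, csf1ra and mfap4 were on the other side than in the authors' deposited table, without a call. The edgeR log2 fold changes of c1qc (0.08) and mpeg1.1 (0.09), whose groups overlapped, were also positive. Those of c1qa, cd74b and marco were negative, as in the authors' deposited table. As these libraries go against their heart label, such signs neither repeat nor contradict the comparison of that table.

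For csf1ra, the best covered of the 9 with 552 to 751 reads, the libraries labelled vehicle stood at 17.6 and 17.4 CPM and those labelled alfacalcidol at 17.96 and 18.9 CPM. The edgeR log2 fold change was 0.08 (95% interval -0.13 to 0.29). This interval does not reach the -0.62 of the authors' deposited table. Since the libraries go against their heart label, it is no repeat of that comparison. The gene mpeg1.1 stood at 6.585 and 6.503 CPM under the vehicle label and at 6.44 and 7.46 CPM under the alfacalcidol label, so its groups overlapped (log2 fold change 0.09, 95% interval -0.26 to 0.43). The gene marco stood at 2.45 and 2.53 CPM against 2.54 and 2.27 CPM, also overlapping (log2 fold change -0.05, 95% interval -0.51 to 0.41). The gene mfap4 stood at 0.827 and 1.09 CPM under the vehicle label and at 1.36 and 1.23 CPM under the alfacalcidol label (log2 fold change 0.43 ± 0.28, SE).

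The C1q chains were barely detected in these libraries. The gene c1qa had 21 and 15 reads under the vehicle label and 16 and 20 under the alfacalcidol label, and c1qc had 6 and 12 against 11 and 10. The filtered-out c1qb had 5 and 7 against 4 and 7 reads. All 3 sets of values overlap between the labels, and at this depth differences of the size seen in the table were not detectable: the 95% interval of the log2 fold change ran from -1.12 to 0.80 for c1qa and from -1.20 to 1.36 for c1qc.

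**Figure D4:**
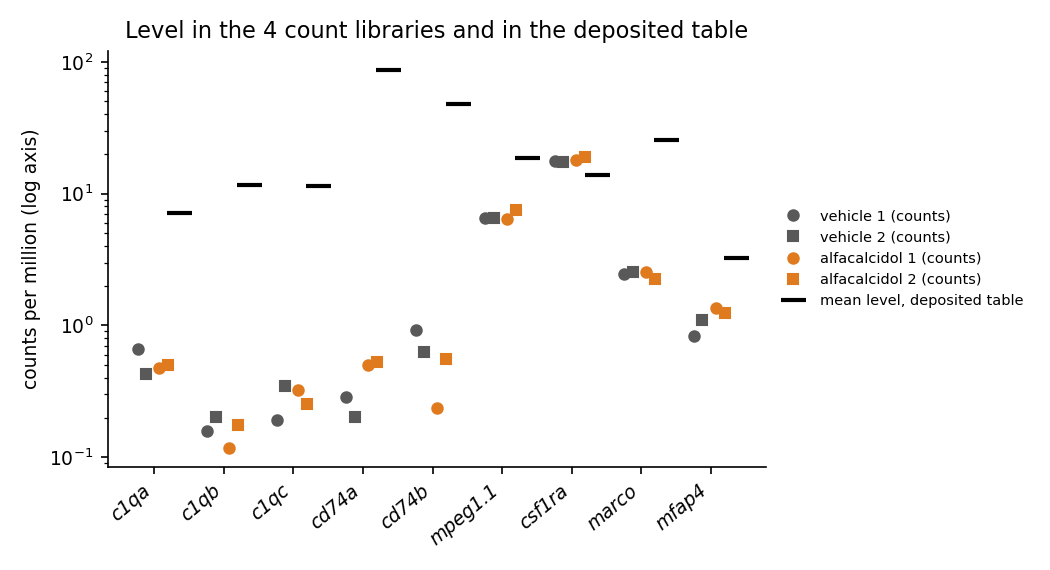
Level of the 9 genes in CPM on a log axis, with a point for each of the 4 count libraries (grey vehicle, orange alfacalcidol, circles replicate 1, squares replicate 2) and a black bar for the mean level in the authors' deposited table. For 8 of the 9 genes the bar lies above all 4 points, by the widest margin for cd74a at 87.2 against 0.201 to 0.529 CPM, and for csf1ra it lies below them.

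The same gene can be compared between the 2 sources, and the 9 genes did not shift together. The level in the authors' deposited table over the mean of the 4 count libraries was 230-fold for cd74a, 82.3-fold for cd74b, 71.0-fold for c1qb, 41.3-fold for c1qc, 13.7-fold for c1qa and 10.5-fold for marco. It was 2.89-fold for mfap4, 2.74-fold for mpeg1.1 and 0.768-fold for csf1ra in the same ratio of the authors' deposited table to the counts. The class I light chain genes differed in this ratio, 235-fold for b2m and 11.5-fold for b2ml. The gene b2m was at 452 CPM in the authors' deposited table against 1.81 ± 0.278 CPM (SD, n = 2) under the vehicle label of the counts. The gene b2ml was at 701 CPM in the authors' deposited table against 59.8 ± 3.17 CPM (SD, n = 2) under that label. All 18 class I genes found in both sources stood higher there than in the counts, with summed levels (the authors' deposited table first) of 1645 and 116 CPM. Class II genes were mixed, 8 of 12 being higher in the authors' deposited table and 4 lower, with summed levels of 431 CPM there and 751 CPM in the counts. Among those higher, mhc2dab was at 19.4 CPM in the authors' deposited table against 0.0750 ± 0.0160 CPM (SD, n = 2) under the vehicle label. Among those lower, ctsla was at 225 CPM in the authors' deposited table against a mean of 588 CPM over the 4 count libraries. The gene ctsla gave the largest part of both class II sums, so these sums do not stand for the list. Neutrophil genes went the other way, 8 of 10 being lower in the authors' deposited table than in the counts, with lyz at 2.81 CPM there against 24.9 ± 3.90 CPM (SD, n = 2) under the vehicle label. The b2m, b2ml, mhc2dab, ctsla and lyz examples were picked after their values were seen.

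Beside csf1ra, genes of pigment cells were clearly present in the count libraries. The list of 10 pigment cell genes, written after the values were seen, had 7 matched, with a summed level of 638 to 737 CPM over the 4 libraries, and gch2, of pteridine pigment synthesis, at 151 ± 17.6 CPM (SD, n = 2) under the vehicle label. The part of pigment cells in the csf1ra level was not tested. Summed over the 9 genes, the libraries labelled vehicle stood at 29.6 and 29.3 CPM and those labelled alfacalcidol at 29.9 and 31.9 CPM, of which csf1ra gave 17.4 to 18.9 CPM per library. Summed neutrophil genes were at 145 and 133 CPM under the vehicle label against 130 and 141 CPM under the alfacalcidol label. None of the matched neutrophil, B cell, T cell, macrophage, complement, class I and class II genes tested in the counts was called (edgeR adjusted p 0.05, and 0 of all genes as above).

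**Figure D5:**
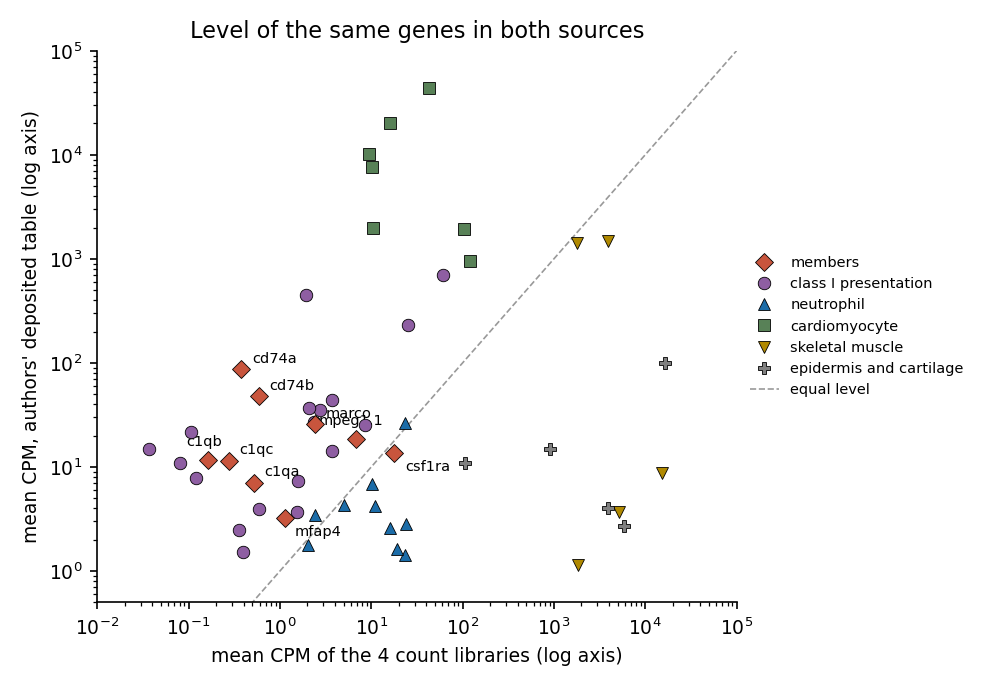
Mean CPM of the 4 count libraries (x, log axis) against the mean CPM of the authors' deposited table (y, log axis), a point per gene; the dashed line marks equal levels. The C1q and invariant chain genes lie above the line, as do the 18 class I genes and the cardiomyocyte genes, at varied distances. Just below the line lies csf1ra at 13.8 against 17.9 CPM, and 8 of 10 neutrophil genes also lie below it.

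Across the 4 count libraries the mean centred log2 CPM of the 9 genes moved only from -0.06 to 0.09. The 5 named genes whose log2 CPM followed this profile most closely were reep3a, gli2a, foxm1, gpm6ab and slc29a1a, with Pearson's r of 0.9999 each over 4 libraries. With so few libraries 470 of 16536 candidate genes had an r above 0.95, so the ranking singles out no gene. The points share the library and its depth, and no p is given.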

How the data were processed

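Per the submitters' processing notes, the authors used CASAVA, TopHat2, featureCounts and edgeR with GRCz10. Not given in those notes are tool versions, filters and how reads on overlapping copies or on either strand were assigned. The raw counts of 31462 genes in 4 libraries were deposited by the authors without normalization. For 14962 genes the authors' deposited table holds log2 fold changes, mean levels as log2 CPM, and p-values before and after adjustment, which follows Benjamini and Hochberg as checked.

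A two-sided quasi-likelihood F-test was run on the counts (edgeR 4.0.16, R 4.3.3) with TMM scaling, no covariate and the 22428 genes that filterByExpr kept. P-values were adjusted by Benjamini-Hochberg at a threshold of 0.05, and 95% intervals come from the quasi-likelihood standard error. The fit was tested on simulated data. Each group had 2 libraries; whether they are separate animals is not stated, so p-values measure the spread between these libraries, which may be technical. No pair of libraries was identical. The common dispersion was 0.0119.

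The members and lists were chosen with earlier results of these data known. Of 246 genes on the lists, 146 were matched by symbol in the table. The table has 109 symbols on more than 1 row, which were not used for matching. All 9 members were named, then up to 4 called genes by lowest adjusted p for each list of the pathway, and up to 3 for other cell types. Alternatives were RLE or no scaling, no low-count filter, DESeq2 1.42.0, a replicate block, each library left out and other thresholds; a crossed block and the table without mfap4 were added after the data were seen. No sequence is printed, and no reference genome was used.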

Additional observations from a re-analysis of the deposited data

How the results depend on the processing

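In the authors' deposited table the number of the 9 genes called was 5 at an adjusted p of 0.05, 2 at 0.01 (c1qc and cd74a), 6 at 0.1 and 3 with a 1.5-fold minimum (c1qc, cd74a and csf1ra), beside 20.1%, 13.7%, 25.4% and 17.8% of all genes. Without mfap4 it was 5 of 8. In the count libraries 0 of the members tested were called under each alternative that kept every library. Without the low-count filter 9 members were tested, and otherwise 8, without c1qb. The number of all genes called was 0 in each of these alternatives but 1, and with the replicate block it was 0. Libraries with the same replicate number deviated in opposite ways (r = -0.47 over 22428 genes). With 2 libraries per label, the crossed pairing has the opposite value by construction (r = 0.47). The labels do not say whether the numbers mark pairs, and this sign alone cannot settle it. The crossed pairing as a block, added after the data were seen, called 7 genes, none of the 8 members tested. At an unadjusted p under 0.05 it had 788 of all genes and 2 of the 8 tested, cd74a (0.0365) and cd74b (0.0194), against 128 and 1 without a block and 39 and 0 with the replicate block. Because the crossed pairing was picked from these same counts, its p-values and calls tend to be too favourable and cannot be read as tests. With each library left out in turn, where the lone library of a group is assumed to vary like the others, the edgeR log2 fold change ran from -0.44 to 0.18 for c1qa, -0.27 to 0.58 for c1qc, -0.024 to 0.19 for mpeg1.1 and -0.14 to 0.027 for marco, none of them called. The sign changed for c1qa without vehicle replicate 1, for c1qc without vehicle replicate 1 or alfacalcidol replicate 1, and for mpeg1.1 and marco without alfacalcidol replicate 2. The signs of cd74a (0.85 to 1.34), cd74b (-1.70 to -0.48), csf1ra (0.04 to 0.12) and mfap4 (0.24 to 0.65) held. Depth limits c1qa, c1qb, c1qc, cd74a and cd74b, with 4 to 29 reads per library.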
